A study of Homo sapiens with 28 samples.

Results

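Control libraries of the human leukemia lines MOLM13 and MV4;11 were compared in their unperturbed state, 9 of the 28 RNA-seq libraries of the series. All 9 carried a lentiviral non-targeting hairpin (shNT) and had been selected with puromycin, and all were sequenced on the HiSeq instrument. MOLM13, labelled with the MLL-AF9 translocation and grown in RPMI medium, gave 6 libraries in 2 sets of 3. The labels give 72 h of puromycin for set 1 and for the MOLM13 libraries of the first MBNL1 hairpin. They give no such time for set 2, and do not say which libraries were prepared together. MV4;11, labelled with MLL-AF4 and grown in IMDM, gave 3 libraries, and is also called the MLL-AF4 line in what follows. The sources used here do not date the harvest of set 2 or of MV4;11. Each line came from 1 patient's leukemia, so the line, its fusion partner and its medium cannot be told apart. Nor can a difference in preparation or harvest of the MV4;11 libraries be told from the line. P-values measure only the spread between libraries of a line, which may be technical. The labels call both lines acute myeloid leukemia. A difference was kept as a line difference only where both MOLM13 sets differed from MV4;11 in the same direction, which left 620 genes of 22391 in the expression file (6.12% of those tested in both comparisons) and, at a looser threshold, 209 splicing events of 100814 (0.306% of those tested in both). Both comparisons used the same 3 MLL-AF4 libraries, so a deviating MLL-AF4 library counts in both.

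MLL (KMT2A) fusions join the amino-terminal part of a histone methyltransferase to one of several partners of the transcription elongation machinery, and keep HOXA genes and MEIS1 active in blasts that resemble arrested myelomonocytic precursors. Such precursors make granule proteases early and surface receptors of monocytes later. Alternative splicing, set in part by regulators such as MBNL1 and PTBP1, decides which exons of a transcript are joined, and is read here as PSI (percent spliced in, given as a fraction between 0 and 1).

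Before any line difference was drawn, 3 libraries were found to stand apart from their own group. In the third library of MOLM13 set 1, 793 of 10497 genes were at least 2-fold higher and 524 at least 2-fold lower than in the rest of its set. The first library of set 2 had 329 higher and 115 lower, and the third MLL-AF4 library 235 higher and 7 lower. The counts of the gene lists and regions described below are therefore given with and without these 3 libraries, a setting added after the data had been seen. Relative depth ran between 0.512 and 1 of the deepest library, and between 9552 and 10220 genes reached 1 RPKM (reads per kilobase of a gene, scaled to all mapped reads of the library). Markers were those of myeloid cells in both lines. Of 40 monocyte and macrophage markers, 23 had a median of at least 1 RPKM over the MOLM13 libraries and 22 over those of MV4;11. Of 28 granule markers 16 and 15 did so. Of 22 B lymphoid markers only 1 and 0 did so, and of 28 erythroid and megakaryocyte markers 2 and 1. Of 31 stem and progenitor markers 12 and 13 did so. CD34, which marks such cells, had no reads in any of the 9 libraries.

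Of 10135 genes tested in both comparisons, 274 were higher in MOLM13 against both of its sets (2.7%) and 346 lower (3.41%), at an adjusted p under 0.05 and at least a 1.5-fold difference in limma. Set 1 alone gave 547 higher and 551 lower genes of 10410 (10.5%), and set 2 alone 677 higher and 561 lower of 10222 (12.1%). Set 1 against set 2 gave 0 of 10161 in limma, with 293 at an unadjusted p under 0.05 and 51 (0.502%) at 0.01 or less with the same fold. The smaller of a gene's differences was over 1 on the log2 scale for 125 of the higher and 172 of the lower genes. All 620 had groups that did not overlap over the 9 libraries, which also held for 10.7% of all genes on the higher side and 10.2% on the lower side. With the 3 libraries that stood apart left out, 1379 genes were higher (13.7% of those tested) and 953 lower (9.46%), and 603 of the 620 were among them. Counts without these 3 libraries in what follows are to be read against these shares. With the third set 1 library alone left out 1148 genes were called against both sets, and with the third MLL-AF4 library left out 1230. Leaving out instead the first library of set 1 gave 260, its second 159, the second of set 2 400, the first MLL-AF4 library 107 and the second 94. Of the 64 genes named here by rule with a call against both sets, 25 kept both calls with each library left out in turn, among them CTSG, PRSS57, S100A8, CLEC12A, CYBB, DNAJC15, FLNC, NQO1, SLC7A11, CBS and XBP1. Without the first MLL-AF4 library 38 of the 64 lost a call, and without the second 39. Scaling each library by its median ratio to the others turned the split into 173 higher and 399 lower, and moved the median of all genes by -0.05 in each comparison.

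Among the 30 gene lists, that of granule proteins had the most members higher in MOLM13 against both sets, though the cell cycle lists had more without the 3 libraries that stood apart. Of 16 granule genes tested, 8 were higher against both sets, 0 were lower and 8 did not pass in both, with median log2 differences of 1.79 against set 1 and 1.29 against set 2, where all genes tested had 0.06 and 0.04. CTSG, the granule protease cathepsin G, had 68.7, 72.0 and 59.0 RPKM in MOLM13 set 1 and 92.7, 41.6 and 23.1 RPKM in set 2, against 2.48, 4.51 and 5.71 RPKM in MV4;11. Every MOLM13 library lay above every MLL-AF4 library. The log2 difference was 3.74 ± 0.25 (SE) against set 1 (adjusted p = 0.000425, limma) and 3.18 ± 0.42 against set 2 (adjusted p = 0.00191). PRSS57, a further neutrophil serine protease, had 348, 365 and 364 RPKM in set 1 and 358, 161 and 150 RPKM in set 2, against 15.3, 21.2 and 61.7 RPKM in MV4;11. The third MLL-AF4 library was the highest of its group but still below all MOLM13 libraries. PRTN3 (proteinase 3) was the most abundant of these proteases, at 1905 to 6244 RPKM in MOLM13 and 649 to 1710 RPKM in MV4;11. CST7, an inhibitor of cathepsins in granules, had 59.4 to 131 RPKM in MOLM13 and 10.0 to 15.7 RPKM in MV4;11. The eosinophil granule protein PRG2 had 17.4 to 67.8 RPKM in MOLM13 and 3.15 to 4.43 RPKM in MV4;11, and its difference was 3.74 ± 0.17 in set 1 and 2.21 ± 0.19 in set 2 (adjusted p = 0.00014 and 0.000239, limma). EPX (eosinophil peroxidase), BPI, which binds bacterial endotoxin, and CSF3R, the receptor for granulocyte colony-stimulating factor, made up the 8. MPO (myeloperoxidase) did not pass against set 1 (adjusted p = 0.0883): it had 3.26 RPKM in the third library of that set, 10.6 to 65.4 RPKM in the other MOLM13 libraries and 1.83 to 3.87 RPKM in MV4;11. In bulk RNA, fewer cells of a type and less RNA per cell cannot be told apart. Among granule genes 9 of 15 were higher and 0 lower without the 3 libraries that stood apart.

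Of 23 monocyte genes tested, 2 were higher and 2 lower against both sets and 19 did not pass in both, with medians of 0.02 and -0.17 (all genes: 2.7% higher, 3.41% lower). Without the 3 libraries that stood apart, 2 of 22 were higher and 4 lower. The higher ones were S100A8 and S100A9, which together form calprotectin. S100A8 had 12.9, 13.7 and 12.4 RPKM in MOLM13 set 1 and 10.4, 27.2 and 12.6 RPKM in set 2, against 1.67, 1.70 and 1.49 RPKM in MV4;11. The second library of set 2 was the highest and the groups did not overlap. S100A9 had 14.2 to 81.4 RPKM in MOLM13 and 2.68 to 7.91 RPKM in MV4;11. The lower ones were CLEC12A, a lectin receptor of myeloid cells, and MARCO, a scavenger receptor. CLEC12A had 0.155 to 4.37 RPKM in MOLM13 and 7.87 to 13.6 RPKM in MV4;11, a difference of -2.81 ± 0.27 in set 1 and -1.95 ± 0.34 in set 2 (adjusted p = 0.00185 and 0.00671, limma). Among Fc and TREM receptors and their effectors, 1 of 19 was lower and 0 higher, and without the 3 libraries 6 of 19 were lower and 2 higher. The 1 lower with all libraries was CYBB, the catalytic subunit of the phagocyte oxidase, at 1.87 to 3.30 RPKM in MOLM13 and 8.57 to 14.9 RPKM in MV4;11. Summed monocyte marker levels overlapped: 2307 to 2319 RPKM in set 1 and 1576 to 4065 RPKM in set 2, against 2759 to 3478 RPKM in MV4;11.

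Several genes outside these lists were among the 15 with the largest differences. DNAJC15, a cochaperone of the mitochondrial inner membrane, had 25.0, 22.2 and 18.2 RPKM in MOLM13 set 1 and 19.5, 20.1 and 22.5 RPKM in set 2, against 1.20, 1.83 and 1.53 RPKM in MV4;11. The levels were even within both lines and far apart between them, with log2 differences of 3.17 ± 0.19 and 3.11 ± 0.18 (adjusted p = 0.000302 and 4.73e-05, limma). RUBCNL, a regulator of autophagosome maturation, had 6.00 to 15.6 RPKM in MOLM13 and 0.298 to 0.481 RPKM in MV4;11. ATP6V1C2, a subunit of the vacuolar proton pump, had 2.72 to 14.6 RPKM in MOLM13 and 0.139 to 0.301 RPKM in MV4;11. ALOX12, a lipoxygenase of arachidonic acid, had 5.18 to 26.7 RPKM in MOLM13 and 0.423 to 0.941 RPKM in MV4;11. For ALOX12 the third library of set 1 was the highest, as it was for PTP4A3, a phosphatase, at 309 RPKM against 25.5 to 55.8 RPKM in the other MOLM13 libraries and 5.50 to 10.5 RPKM in MV4;11. MIF, a cytokine that acts on macrophages, had 139 to 243 RPKM in MOLM13 and 20.3, 29.6 and 97.8 RPKM in MV4;11, the highest being the third MLL-AF4 library. SPNS3, a member of a family of lipid transporters, had 27.1 to 73.3 RPKM in MOLM13 and 6.47 to 10.8 RPKM in MV4;11. The antisense RNA PCED1B-AS1 had 6.91 to 21.2 RPKM in MOLM13 and 0.332 to 0.563 RPKM in MV4;11, and its reads cannot be told from those of genes on the other strand because the sources used here do not say whether the counting used strand.

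On the side of MV4;11, MMP2, a secreted gelatinase, had 0.764, 0.683 and 7.22 RPKM in MOLM13 set 1 and 0.792, 1.14 and 2.18 RPKM in set 2, against 19.5, 22.7 and 28.4 RPKM in MV4;11. The third library of set 1 was the highest MOLM13 library and lay below all of MV4;11. The log2 differences were -3.06 ± 0.57 and -3.40 ± 0.24 (adjusted p = 0.0202 and 0.000111, limma). FLNC, an actin crosslinking filamin, had 0.306 to 1.13 RPKM in MOLM13 and 9.27 to 13.95 RPKM in MV4;11. A2M, a broad protease inhibitor, had 1.11 to 9.50 RPKM in MOLM13 and 19.8 to 23.6 RPKM in MV4;11. FTH1, the ferritin heavy chain that stores iron, had 54.2, 51.7 and 217 RPKM in set 1 and 120, 92.8 and 167 RPKM in set 2, against 773, 930 and 888 RPKM in MV4;11. Its many pseudogenes share reads with it, so its level is uncertain. NQO1, a quinone reductase, had 2.31 to 6.85 RPKM in MOLM13 and 31.1 to 34.4 RPKM in MV4;11, with differences of -2.84 ± 0.19 and -2.54 ± 0.30 (adjusted p = 0.000378 and 0.00111, limma). SLC7A11, the cystine transporter that feeds glutathione synthesis, had 0.243 to 2.58 RPKM in MOLM13 and 5.65 to 9.19 RPKM in MV4;11.

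**Figure D1:**
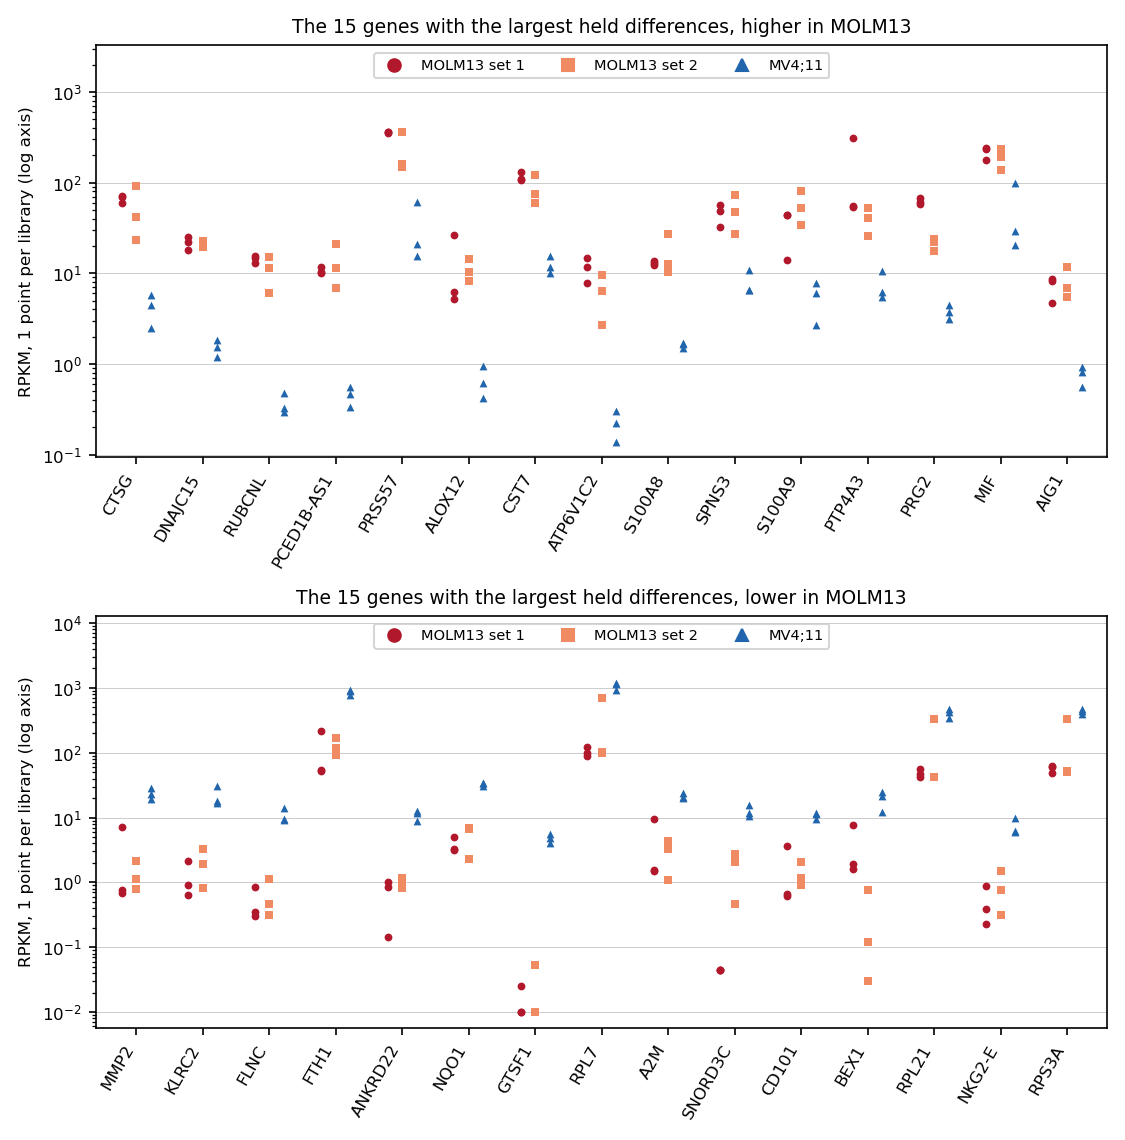
RPKM on a log axis of the 15 genes with the largest differences in each direction that held against both MOLM13 sets, with MOLM13 set 1, MOLM13 set 2 and MV4;11 in that order for each gene. Each point is 1 library, and libraries without reads sit at the lowest value the file gives that gene. The lines do not overlap for any gene shown, and MMP2 of the third set 1 library, at 7.22 RPKM, is nearest to MV4;11 within MOLM13.

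KLRC2, an activating receptor of natural killer cells, had 0.629 to 3.31 RPKM in MOLM13 and 16.8 to 30.9 RPKM in MV4;11. NKG2-E had 0.227 to 1.52 RPKM in MOLM13 and 5.99 to 9.88 RPKM in MV4;11, but it and KLRC2 are near-identical copies and the split of reads between them is uncertain. NCAM1 (CD56) had 1.68 to 8.81 RPKM in MOLM13 and 12.4 to 15.2 RPKM in MV4;11, and lost its call in 10 of 12 fits with a library left out. Of 26 T and natural killer markers, 5 had a median of at least 1 RPKM in MOLM13 and 4 in MV4;11. The summed level of the 26 was 54.3 to 124 RPKM in set 1 and 47.5 to 83.5 RPKM in set 2, against 53.2 to 60.4 RPKM in MV4;11. Of the 6 tested, 0 were higher and 1 lower against both sets. Set 1 alone gave 1 higher and 2 lower, and set 2 alone 1 and 1. Without the 3 libraries that stood apart, 2 of 5 were higher and 2 lower. BANK1, a B cell scaffold protein, was the 1 tested B lymphoid marker and was higher, with 0.501 to 3.04 RPKM in MOLM13 and 0.0873 to 0.239 RPKM in MV4;11; it no longer passed without the 3 libraries that stood apart.

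GTSF1 was close to silent in MOLM13. It is a factor of the piRNA pathway in the germline and had no reads in 4 of the 6 MOLM13 libraries and at most 0.0528 RPKM in the others, below the 0.0778 RPKM that 3 reads per library would give. It had 4.05, 5.61 and 4.79 RPKM in MV4;11. SNORD3C, a copy of the U3 small nucleolar RNA, had no reads in set 1 and 2.75, 2.05 and 0.463 RPKM in set 2, against 15.8, 10.7 and 11.8 RPKM in MV4;11. BEX1 had 1.90, 1.64 and 7.63 RPKM in set 1 and 0.770, 0.120 and 0.0297 RPKM in set 2, against 12.3, 21.2 and 24.8 RPKM in MV4;11. The set 1 libraries of BEX1 all lay above those of set 2, and all MOLM13 libraries below MV4;11, by -2.29 ± 0.47 in set 1 and -3.96 ± 0.28 in set 2.

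Of 33 genes of amino acid supply and the stress response to its lack, 6 were higher, 1 (SLC7A11) was lower and 26 did not pass in both, with medians of 0.43 and 0.65. CBS, which makes cystathionine from homocysteine, had 8.87, 9.86 and 8.06 RPKM in set 1 and 19.2, 5.37 and 5.96 RPKM in set 2, against 1.49, 1.44 and 2.16 RPKM in MV4;11. The groups did not overlap, and the differences were 1.89 ± 0.18 and 1.85 ± 0.38 (adjusted p = 0.00163 and 0.0121, limma). XBP1, a transcription factor of the unfolded protein response, had 33.2 to 77.7 RPKM in MOLM13 and 18.3 to 19.3 RPKM in MV4;11. The glutamine transporter SLC1A5, the leucine transporter SLC7A5, the proline synthesis enzyme PYCR1 and the serine hydroxymethyltransferase SHMT2 were the others. Of 30 genes of sterol and lipid metabolism, 2 were higher (MVD and LSS, both of sterol synthesis) and 1 lower (ABCA1, which exports cholesterol). MVD had 9.35 to 23.5 RPKM in MOLM13 and 4.73 to 8.53 RPKM in MV4;11. Without the 3 libraries that stood apart, 11 amino acid genes of 32 were higher and 1 lower, and 7 sterol genes of 30 were higher and 1 lower.

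Ribosomal protein genes gave 5 lower and 0 higher of 49, with medians of -0.25 and -0.18, and 14 lower and 2 higher of 49 without the 3 libraries that stood apart. RPL7 had 125, 98.0 and 88.3 RPKM in set 1 and 690, 98.8 and 103 RPKM in set 2, against 1139, 1184 and 939 RPKM in MV4;11. The first library of set 2 was closer to MV4;11 than to the other MOLM13 libraries. The same library was the highest of MOLM13 for RPS3A, at 326 RPKM against 49.3 to 62.6 RPKM in the other MOLM13 libraries and 391 to 477 RPKM in MV4;11. RPL6, RPL9 and RPL21, the last of which is outside the list, followed the same order. These genes have many processed pseudogenes that share reads with them, so their levels are uncertain. RPS23, the fifth, was even, at 174 to 251 RPKM in MOLM13 and 398 to 478 RPKM in MV4;11.

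Cell cycle genes were called higher against set 2 more often than against set 1 (the third library of set 1 was low for them). Of 34 genes of the G1/S transition, 0 were called against both sets in limma, while 25 were called higher against set 2 and 0 against set 1. At an unadjusted p under 0.05 in both, 15 of the 34 were higher and 0 lower, where 1118 of 9636 autosomal genes were higher and 898 lower. The mean level of these 34 genes, as log2(RPKM + 1), was 5.01, 5.00 and 3.59 in set 1 and 4.41, 4.88 and 4.76 in set 2, against 3.85, 3.84 and 3.75 in MV4;11. Only the third set 1 library lay within or below the MV4;11 range. The 35 genes of G2 and mitosis had mean levels of 4.85, 4.74 and 3.09 in set 1 and 4.53, 4.70 and 4.94 in set 2, against 3.65, 3.56 and 3.28 in MV4;11, and 33 were called higher against set 2 and 1 against set 1. The gene CDC25B, a phosphatase that activates mitotic kinases, was the 1 called against both sets, higher with 14.9 to 27.5 RPKM in MOLM13 and 7.45 to 10.4 RPKM in MV4;11. CDK1, the mitotic kinase itself, had 34.1, 26.8 and 6.43 RPKM in set 1 and 25.1, 35.9 and 35.8 RPKM in set 2, against 13.5, 11.9 and 8.64 RPKM in MV4;11. In that library of set 1 CSF1R, the receptor for macrophage colony-stimulating factor, was at 49.1 RPKM, against 7.38 and 8.02 RPKM in the rest of its set. Without the 3 libraries that stood apart, 27 of 34 G1/S genes were higher and 1 lower, and 31 of 35 G2 and mitosis genes higher and 0 lower, beside 1379 higher and 953 lower of all 10079 genes.

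**Figure D2:**
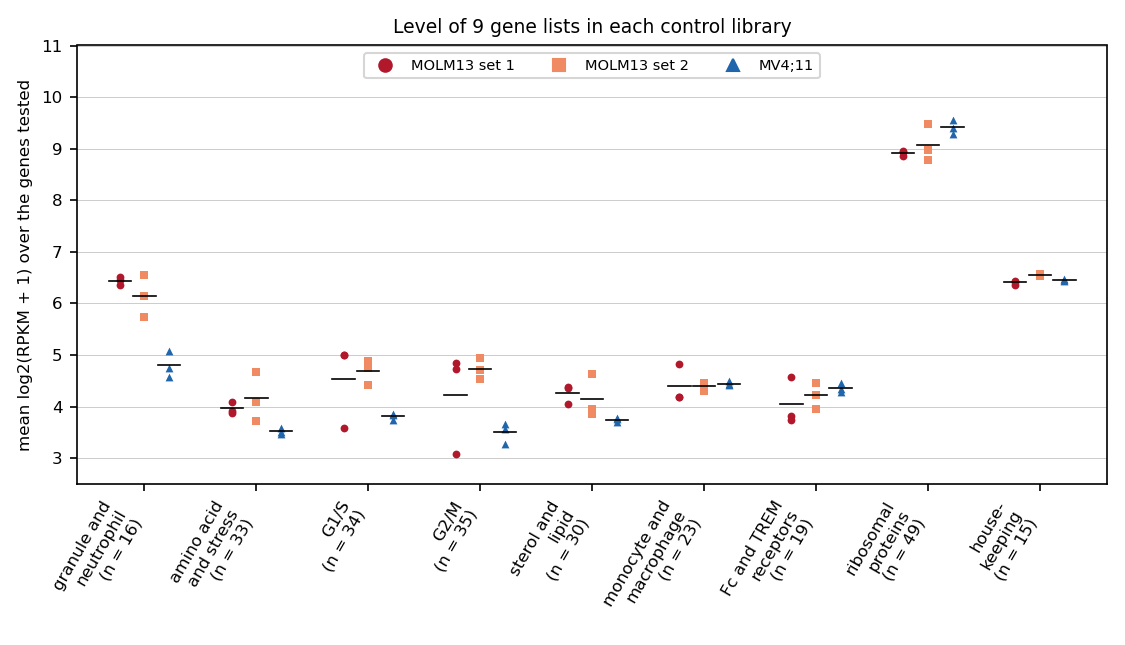
Mean level of the tested genes of 9 gene lists in each control library, as log2(RPKM + 1), with MOLM13 set 1, MOLM13 set 2 and MV4;11 in that order for each list. Each point is 1 library and each bar the mean of its group. Granule genes lie at 5.75 to 6.55 in MOLM13 and 4.57 to 5.08 in MV4;11, while the third set 1 library falls to 3.59 for G1/S and 3.09 for G2/M genes.

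Regulators tied to the fusion or to splicing were called in shares read here against 2.7% higher and 3.41% lower over all genes. HOXA9, a homeobox target of MLL fusions, had 3.96 to 13.6 RPKM in MOLM13 and 2.79 to 5.01 RPKM in MV4;11 and did not pass in either comparison (adjusted p = 0.0853 and 0.124, limma). HOXA10, MEIS1, FLT3, AFF1, SETD1A, KIT, CELF1 and CELF2 did not pass either. FLT3, the receptor tyrosine kinase of early myeloid cells, had 108 to 274 RPKM in MOLM13 and 195 to 274 RPKM in MV4;11, and the ranges overlapped. DOT1L, the H3K79 methyltransferase recruited by MLL fusions, passed against set 1 (0.85 ± 0.20, adjusted p = 0.0403) but not against set 2 (0.65 ± 0.21, adjusted p = 0.0744). KMT2A passed against set 2 (-0.70 ± 0.18, adjusted p = 0.0315) but not against set 1 (-0.56 ± 0.17, adjusted p = 0.0718). Its reads cannot be told from those of the fusion transcript where the 2 share exons. Of 28 MLL and DOT1L complex genes 1 was lower, KMT2D, an H3K4 methyltransferase, with 1.81 to 2.91 RPKM in MOLM13 and 4.98 to 5.70 RPKM in MV4;11. Of 19 HOXA and MLL target genes 1 was higher, CDKN2C, an inhibitor of CDK4 and CDK6, with 12.7 to 26.7 RPKM in MOLM13 and 5.23 to 6.17 RPKM in MV4;11. With the 3 libraries that stood apart left out, 1 of 29 complex genes was higher and 5 lower, and 3 of 17 target genes higher and 1 lower.

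MBNL1 itself, the splicing regulator depleted elsewhere in the series, had 18.8, 19.97 and 28.6 RPKM in set 1 and 20.2, 19.04 and 17.5 RPKM in set 2, against 23.3, 25.4 and 18.5 RPKM in MV4;11. The lines overlapped, with differences of -0.01 ± 0.21 and -0.22 ± 0.18 (adjusted p = 0.978 and 0.443, limma). MBNL2 and MBNL3, its paralogs, stayed under 1 RPKM in all 9 libraries and were not tested. Of 15 regulators of the MBNL, CELF and related families 1 was higher, PTBP1, which represses exons, with 102 to 139 RPKM in MOLM13 and 58.2 to 74.9 RPKM in MV4;11. Of 36 SR and hnRNP genes 1 was higher, TRA2B, an SR-like activator of exons, with 43.6 to 70.5 RPKM in MOLM13 and 29.0 to 32.9 RPKM in MV4;11. With a library left out, PTBP1 lost its call in 8 of 12 fits and TRA2B in 9 of 12. Without the 3 libraries that stood apart, 8 of these 36 were higher and 1 lower, as were 2 and 1 of the 15 MBNL and CELF regulators.

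The remaining groups gave between 0 and 2 calls in a direction. IFI6, an interferon-induced gene, was higher at 28.9, 36.6 and 146 RPKM in set 1 and 8.80, 9.91 and 16.6 RPKM in set 2, against 2.5, 3.07 and 5.46 RPKM in MV4;11, the set 1 libraries lying above those of set 2. Of 22 interferon genes 2 were higher (9.09%, where 2.7% of all genes were) and 0 lower, and USP18, the other, lost its call without the 3 libraries. Of 22 genes of FLT3, STAT5 and MAPK signalling 2 were higher (9.09%) and 0 lower, the phosphatase DUSP2 and the cyclin CCND3. CCND3 had 27.4 to 48.2 RPKM in MOLM13 and 13.9 to 21.4 RPKM in MV4;11. ICAM3, a leukocyte adhesion molecule, was higher, and CD58, the ligand of CD2, and NCAM1 lower, among 25 integrin and adhesion genes (4% higher and 8% lower). Of 24 genes of class I antigen presentation 1 was lower, the peptide trimming enzyme ERAP1, with 13.3 to 17.0 RPKM in MOLM13 and 20.7 to 33.8 RPKM in MV4;11. It lost its call in 9 of 12 fits with a library left out. In limma 0 were called against both sets of 11 HLA class II genes, 23 BCL2 family genes, 22 lineage transcription factors and 13 stem and progenitor genes. At an unadjusted p under 0.05 in both comparisons, 1118 of 9636 autosomal genes were higher and 898 lower. By that measure 0 of these class II genes were higher and 1 lower, and 4 and 1 of the BCL2 family, 6 and 1 of the lineage factors and 2 and 1 of the stem genes. All these groups had calls without the 3 libraries that stood apart, a setting in which 13.7% of all genes were higher and 9.46% lower. Then 2 of 18 interferon genes were higher and 1 lower, 6 of 20 signalling genes higher and 0 lower, 3 of 25 adhesion genes higher and 6 lower, and 5 of 25 class I genes higher and 1 lower. Of the groups with 0 calls before, 1 of 11 class II genes was then higher and 2 lower, 4 of 23 BCL2 family genes higher and 3 lower, 2 of 23 lineage factors higher and 1 lower, and 2 of 14 stem genes higher and 2 lower.

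Genes lower in MOLM13 made up most of a stretch of chromosome 1. This segment of the short arm of chromosome 1 was delimited after the values had been seen, running from the start of RNPC3 to the end of EMBP1 (GRCh37 chr1:104068313-121310589), and is described here with no test. Of its 77 tested genes 49 were lower against both sets (63.6%, where 3.41% of all genes were) and 0 were higher, and 72 had a difference below 0 in both comparisons. The median log2 difference was -0.93 against set 1 and -0.91 against set 2. In single libraries the median, taken against the MV4;11 mean, was -0.98 to -0.90 in set 1 and -0.86 to -0.83 in set 2, against -0.20 to 0.16 in the MLL-AF4 line, so every MOLM13 library lay below every MLL-AF4 library. The rest of chromosome 1 had 22 higher and 36 lower genes of 944, with medians of -0.04 and 0.03. Immediately before the segment 1 of 32 genes was lower, and beyond the centromere 9 of 36 were. In the segment 60 of 76 genes were lower without the 3 libraries that stood apart. Other settings gave medians of -1.09 to -0.90 against set 1 and -1.04 to -0.83 against set 2. DNA copy number was not analysed here.

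The segment holds several genes of known weight in leukemia and immune recognition. NRAS, a RAS GTPase, had 8.02, 8.21 and 12.0 RPKM in MOLM13 set 1 and 7.96, 8.64 and 10.8 RPKM in set 2, against 22.4, 23.9 and 14.3 RPKM in the MLL-AF4 line. The third MLL-AF4 library was nearest to MOLM13 and the groups did not overlap. NOTCH2, a receptor of the Notch family, had 3.16 to 5.08 RPKM in MOLM13 and 12.7 to 18.9 RPKM in the MLL-AF4 line. HIPK1, a nuclear kinase, had 3.67 to 4.27 RPKM in MOLM13 and 11.4 to 19.1 RPKM in the MLL-AF4 line. The immunoglobulin family surface proteins CD101 and PTGFRN had the largest differences of those named, at -2.36 ± 0.39 and -2.35 ± 0.21 for CD101 and -2.08 ± 0.19 and -2.08 ± 0.17 for PTGFRN. CD53, a tetraspanin, and PSMA5, a proteasome subunit, were lower by 1.28 and 1.13 against set 1 and by 1.43 and 1.06 against set 2. PHGDH, the first enzyme of serine synthesis, lies in the segment but did not follow it, with 17.9 to 97.0 RPKM in MOLM13 and 21.6 to 29.7 RPKM in the MLL-AF4 line (differences 0.01 and 0.58).

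On chromosomes 5 and 6 the median gene was shifted too, by less. On chromosome 5, 65 of 459 genes were lower (14.2%) and 0 higher, and the medians were -0.51 and -0.39. At an unadjusted p under 0.05 in both, 2 of the 459 were higher and 183 lower, where 1118 of 9636 autosomal genes were higher and 898 lower. Library medians were -0.63 to -0.45 in set 1 and -0.40 to -0.36 in set 2, against -0.16 to 0.13 in the MLL-AF4 line. TGFBI, an adhesion protein induced by TGF-beta, had 0.0497 to 0.430 RPKM in MOLM13 and 3.80 to 5.30 RPKM in the MLL-AF4 line. TRIO, a guanine nucleotide exchange factor, had 0.30 to 0.712 RPKM in MOLM13 and 4.05 to 6.13 RPKM in the MLL-AF4 line. CYFIP2, an actin regulator of the WAVE complex, had 2.64 to 5.81 RPKM in MOLM13 and 13.4 to 14.9 RPKM in the MLL-AF4 line. On chromosome 6, 50 of 496 genes were higher (10.1%, where 2.7% of all genes were) and 5 lower, with medians of 0.38 and 0.36. Library medians were 0.30 to 0.38 in set 1 and 0.32 to 0.37 in set 2, against -0.08 to 0.05 in the MLL-AF4 line. ITPR3, a calcium channel of the endoplasmic reticulum, had 2.49 to 5.49 RPKM in MOLM13 and 0.480 to 0.669 RPKM in the MLL-AF4 line. KIFC1, a mitotic kinesin, had 11.7 to 35.3 RPKM in MOLM13 and 6.91 to 8.36 RPKM in the MLL-AF4 line. Chromosome 19 had 41 higher and 8 lower genes of 699, with medians of 0.47 and 0.27, but the MOLM13 sets differed there by 0.19 and MLL-AF4 libraries spread over -0.23 to 0.32. Autosomal genes outside the segment and chromosomes 5 and 6 had medians of 0.08 and 0.05 over 8604 genes, with 214 higher and 201 lower. With the 3 libraries that stood apart left out, 158 of 456 genes of chromosome 5 were lower and 12 higher, 119 of 494 of chromosome 6 higher and 21 lower, 217 of 698 of chromosome 19 higher and 27 lower, and 1201 of 8561 of the other autosomes higher and 662 lower.

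**Figure D3:**
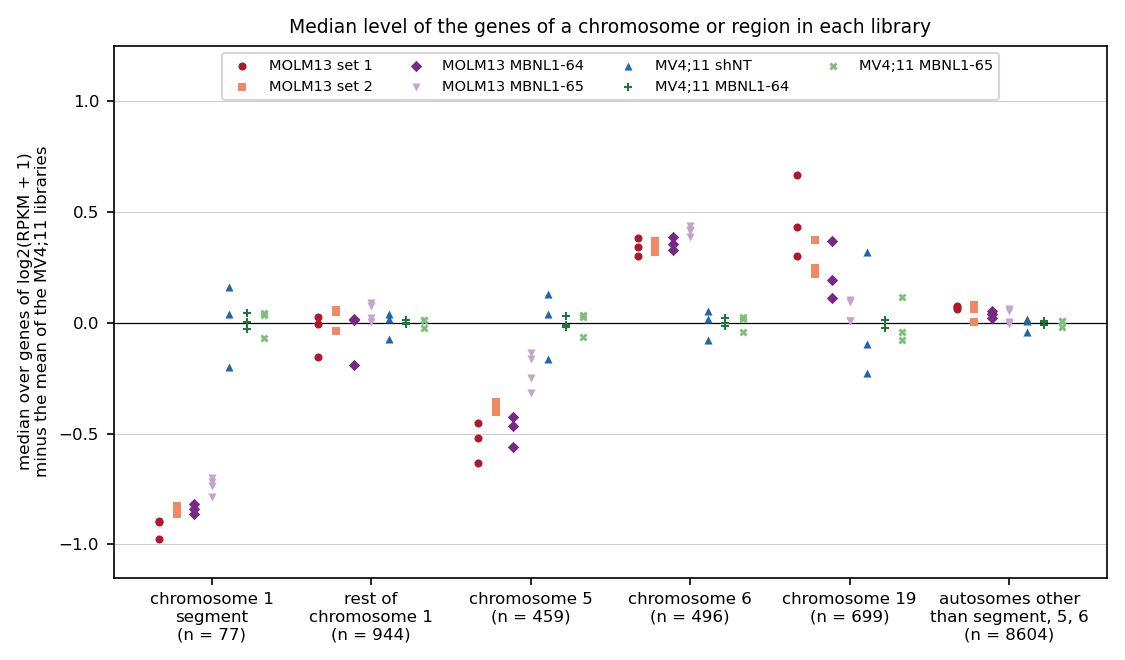
Median over the genes of a region of log2(RPKM + 1) minus the mean of the MLL-AF4 libraries with the same hairpin, 1 point for each library, with the 4 MOLM13 groups left of the 3 MV4;11 groups. The 6 control MOLM13 libraries lie between -0.98 and -0.83 in the chromosome 1 segment, between -0.63 and -0.36 on chromosome 5 and between 0.30 and 0.38 on chromosome 6.

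Splicing differences that held against both sets were few once p-values were adjusted. Of 70720 events tested against set 1, 105 passed (0.148%), of 69796 against set 2 12 passed (0.0172%), of 70278 between the MOLM13 sets 6 passed (0.00854%), and 1 passed against both sets (0.00146%). This was a retained intron of MGAT4B, an N-glycan branching enzyme of the Golgi, with PSI values of 0.0686, 0.104 and 0.123 in MOLM13 set 1 and 0 in each library of set 2, against 0.370, 0.417 and 0.379 in the MLL-AF4 line. The junction set against this intron also skips exons before it, so the value does not weigh the intron against its own splicing alone. The differences were -0.29 and -0.39 (adjusted p = 0.0448 and 0.0236, limma). It kept both calls without the first library of set 2, and lost both without the third MLL-AF4 library (adjusted p = 0.110 and 0.0723, limma). With any other library left out 1 of its adjusted p-values was 0.0548 to 0.132. At the study's own threshold, a PSI difference over 0.1 at an unadjusted p not above 0.01, 1319 events passed against set 1 (1.87%), 812 against set 2 (1.16%) and 522 between the MOLM13 sets themselves (0.743%). Of 68302 events tested in both comparisons, 119 were higher (0.174%) and 90 lower (0.132%) in MOLM13 against both sets, in 169 junction clusters. All 209 had groups that did not overlap, as did 2.5% of all events on the higher and 2.03% on the lower side. Without the 3 libraries that stood apart 316 events passed, and only 56 of the 209 were among them. Leaving out the second library of set 2 gave 126, the first MLL-AF4 library 127 and the second 127. With the first library of set 2 left out, 21 events passed in both comparisons after adjustment. The single-event p-values below are unadjusted unless called adjusted, and apart from MGAT4B none of the named events passed in both comparisons after adjustment. Of 42 named events 11 kept both calls with each library left out in turn, in every fit that had a value, among them LILRA2, STXBP5, RAB44, RGS12, P2RY8 and the CS intron. By type, 77 of 22222 cassette exons passed (0.347%, 46 higher and 31 lower), where 0.306% of all events did. Of 22250 retained introns 32 passed (0.144%, 16 and 16), and of 2378 alternative promoters 22 (0.925%). Of 4217 alternative 5′ splice sites 15 passed (0.356%), and of 5133 alternative 3′ splice sites 14 (0.273%). Of 1514 alternative C-terminal events 11 passed (0.727%), of 1711 labelled trans-splicing 16 (0.935%), and of 8608 with no type given 21 (0.244%).

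PSI of cassette exons and retained introns is given as inclusion. Where the junction examined in the file was the longer one, which skips the exon, or the spliced one of an intron, 1 minus the deposited value was taken, as for STXBP5, CDK5RAP2, SEPT9, CS, NUDT13 and FAM69B. Such a value counts all other junctions of the cluster, not the including one alone. The including junction had lower PSI values when examined itself, at 0.125 to 0.314 in MOLM13 and 0.0312 to 0.0851 in the MLL-AF4 line for STXBP5, and the lines kept their order without overlap for all 6. Other events are given for the examined junction as deposited. For RAB44, RGS12 and CUX1 the examined junction joins exons that the opposing junction skips, so the value is not of a single exon. The exons below come from named cassette events whose examined and opposing junctions share an end. Of these, exons at most 260 bases long and wholly coding in the annotation (GENCODE on GRCh37) are shown. Each is printed on the strand of the gene with 20 bases of intron on each side. Events without a shared end, as in RAB44, RGS12 and CUX1, were not assessed. Capitals mark the exon.
LILRA2, chr19:55085523-55085598, plus strand: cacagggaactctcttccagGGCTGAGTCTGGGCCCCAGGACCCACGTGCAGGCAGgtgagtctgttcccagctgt
STXBP5, chr6:147660295-147660394, plus strand: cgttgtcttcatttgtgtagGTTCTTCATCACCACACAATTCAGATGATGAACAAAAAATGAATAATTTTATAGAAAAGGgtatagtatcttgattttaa
CDK5RAP2, chr9:123169270-123169546, minus strand: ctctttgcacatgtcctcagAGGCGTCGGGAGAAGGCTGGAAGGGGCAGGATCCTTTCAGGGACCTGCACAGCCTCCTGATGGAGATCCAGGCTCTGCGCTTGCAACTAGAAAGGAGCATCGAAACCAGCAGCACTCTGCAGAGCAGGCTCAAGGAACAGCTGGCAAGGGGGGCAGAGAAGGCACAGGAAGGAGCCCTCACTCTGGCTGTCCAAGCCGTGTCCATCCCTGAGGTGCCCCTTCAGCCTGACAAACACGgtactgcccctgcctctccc
C1orf85, chr1:156264530-156264827, minus strand: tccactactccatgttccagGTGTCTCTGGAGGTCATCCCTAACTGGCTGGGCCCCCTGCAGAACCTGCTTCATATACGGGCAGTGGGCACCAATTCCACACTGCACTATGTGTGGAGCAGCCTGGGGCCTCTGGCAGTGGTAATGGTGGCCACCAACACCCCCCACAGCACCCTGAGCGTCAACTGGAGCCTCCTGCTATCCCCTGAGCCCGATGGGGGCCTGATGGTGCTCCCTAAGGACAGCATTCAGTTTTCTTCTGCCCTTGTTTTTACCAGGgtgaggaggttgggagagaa
The exons are 36, 60, 237 and 258 bases long, each a multiple of 3, and all 4 are flanked by the usual ag and gt dinucleotides of the intron ends.

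LILRA2, an activating leukocyte immunoglobulin-like receptor, included the 36-base exon at PSI 0.594, 0.536 and 0.467 in MOLM13 set 1 and 0.667, 0.603 and 0.644 in set 2, against 0.244, 0.151 and 0.218 in the MLL-AF4 line. Inclusion was higher in every MOLM13 library, by 0.33 ± 0.04 (SE) in set 1 and 0.43 ± 0.03 in set 2 (unadjusted p = 0.00115 and 9.11e-05, limma). STXBP5 (tomosyn), which restrains SNARE-driven exocytosis, included its 60-base exon at 0.389 to 0.471 in MOLM13 and 0.0556 to 0.173 in the MLL-AF4 line. The centrosome protein CDK5RAP2 included its 237-base exon at 0.576 to 0.750 in MOLM13 and 0.253 to 0.390 in the MLL-AF4 line. C1orf85, a lysosomal membrane protein, included its 258-base exon at 0.710 to 0.859 in MOLM13 and 0.564 to 0.610 in the MLL-AF4 line. With a library left out, C1orf85 missed the threshold in 8 of 12 fits, CDK5RAP2 in 6 of 12, and LILRA2 and STXBP5 in 0 of 12.

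Inclusion of other cassette exons was lower in MOLM13. SEPT9, a cytoskeletal septin whose exon is not an inner exon of the 2 annotated transcripts that hold it, had inclusion values of 0.0331, 0.0488 and 0.0805 in set 1 and 0.0774, 0.0521 and 0.0702 in set 2, against 0.593, 0.473 and 0.327 in the MLL-AF4 line. The MOLM13 values were near 0 and even, and those of MV4;11 were spread but all higher (differences -0.41 ± 0.07 and -0.40 ± 0.07, unadjusted p = 0.00395 and 0.00431, limma), and 8 of the 12 fits with a library left out missed the threshold. Its including junction alone had PSI values of 0 in MOLM13 and 0.0370 to 0.0962 in the MLL-AF4 line. CUX1, a homeobox factor, had 0.0645 to 0.250 in MOLM13 and 0.545 and 0.592 in the 2 MLL-AF4 libraries with a value. RGS12, which limits G protein signalling, had at most 0.0811 in MOLM13 and 0.306 to 0.439 in the MLL-AF4 line. For CUX1 and RGS12 these values are of a junction between exons that the opposing junction skips. CXXC5, a CpG-binding protein, had 0.0404 to 0.188 in MOLM13 and 0.299 to 0.470 in the MLL-AF4 line. NSD1, an H3K36 methyltransferase, had an event with no type given at 0.0870 to 0.20 in MOLM13 and 0.410 to 0.581 in the MLL-AF4 line. With a library left out, CXXC5 missed the threshold in 10 of 12 fits, NSD1 in 6 of 12, CUX1 in 3 of 8 and RGS12 in 0 of 12.

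**Figure D4:**
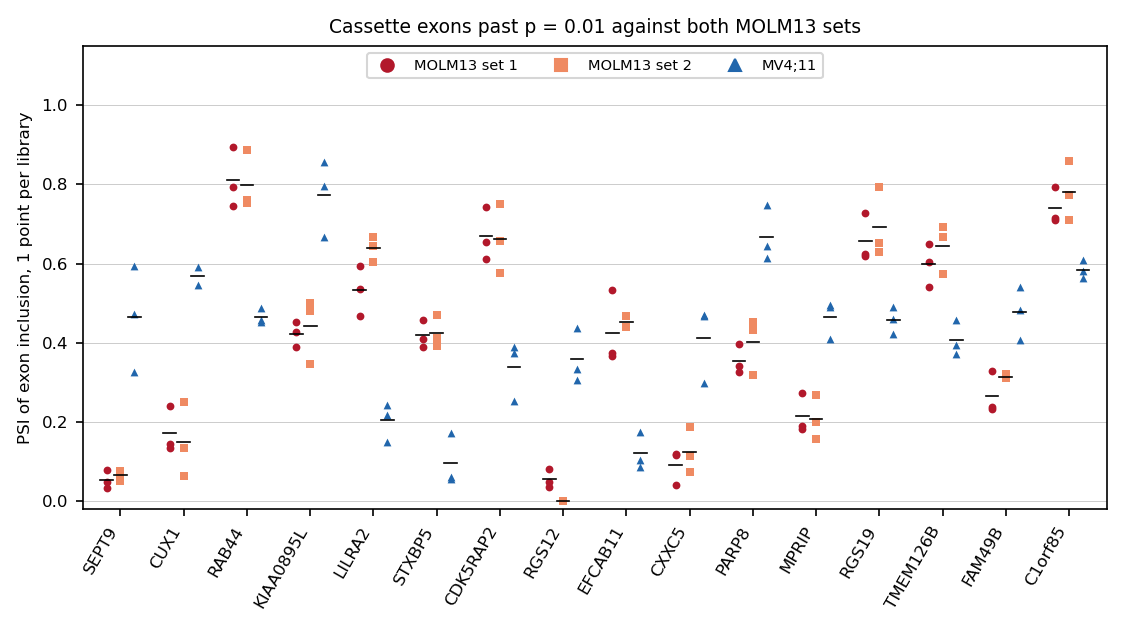
PSI of exon inclusion of the named cassette exons, on a scale of 0 to 1, with MOLM13 set 1, MOLM13 set 2 and MV4;11 in that order for each exon. For some exons it is 1 minus the PSI of the skipping junction, and for others the PSI of a junction between skipped exons. Each point is 1 library and each bar the mean of its group. The lines do not overlap for any exon shown, and SEPT9 lies at 0.0331 to 0.0805 in MOLM13 and 0.327 to 0.593 in MV4;11.

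Retained introns moved in both directions. CS, the citrate synthase of the tricarboxylic acid cycle, had 0.0569 to 0.0967 in MOLM13 and 0.317 to 0.473 in the MLL-AF4 line. NUDT13 had 0.781 to 0.974 in MOLM13 and 0.0526 and 0 in the 2 MLL-AF4 libraries with a value, and FAM69B 0.50 to 0.917 in MOLM13 and 0 to 0.0625 in the MLL-AF4 line, where the junction set against the FAM69B intron skips the exon after it. RPL26 and RGP1 were measured in only 4 of the 6 MOLM13 libraries. First exons differed in DOCK10, a guanine nucleotide exchange factor, at 0.139 to 0.360 in MOLM13 and 0.563 to 0.802 in the MLL-AF4 line, in P2RY8, a G protein-coupled receptor of lymphoid cells, at 0.665 to 0.734 in MOLM13 and 0.239 to 0.402 in the MLL-AF4 line, and in GABPA, an ETS factor, at 0.528 to 0.703 in MOLM13 and 0.244 to 0.306 in the MLL-AF4 line. None of DOT1L, SETD1A, INF2, CD47, ATP2A1, MBNL1, NUMB and KMT2A had an event past this threshold against both sets.

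In 16 genes both the level and an event at the authors' unadjusted threshold differed. How many of all tested genes had such an event was not counted, so the 16 cannot be set against a share over all genes. DOCK10 was itself lower, with 15.2 to 20.8 RPKM in MOLM13 and 41.6 to 65.9 RPKM in the MLL-AF4 line. RAB44, a RAB GTPase with an EF-hand, used a junction between exons that can be skipped together more. Its PSI was 0.745 to 0.893 in MOLM13 and 0.452 to 0.489 in the MLL-AF4 line. The level of RAB44 was higher too, at 10.1 to 20.6 RPKM in MOLM13 and 3.93 to 6.04 RPKM in the MLL-AF4 line. ATRN (attractin) was lower in level, at 10.9 to 17.3 RPKM in MOLM13 and 31.1 to 40.4 RPKM in the MLL-AF4 line. The examined junction of its alternative C-terminal event was lower too, at 0.172 to 0.354 in MOLM13 and 0.447 to 0.592 in the MLL-AF4 line. That junction skips an exon which the opposing junction joins, and which C-terminal end it yields was not determined. SPNS3 and CAMK2D, a calmodulin-dependent kinase, were the others named.

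The libraries with an MBNL1 hairpin had not been used to choose these genes, and carry the same line contrast. MBNL1 averaged 3.23 ± 0.493 RPKM in MOLM13 (SD, n = 3) and 3.72 ± 0.236 RPKM in MV4;11 (n = 3) with hairpin MBNL1-64, and 12.7 ± 3.13 RPKM (n = 4) and 12.0 ± 1.07 RPKM (n = 3) with hairpin MBNL1-65, below the control levels above. With MBNL1-64, 456 of the 600 genes that could be tested were called in the same direction (76%) and 0 in the opposite one, where 12.5% of all genes were called in either direction. With MBNL1-65, 358 of 608 were (58.9%) and 0 opposite, where 11.5% of all genes were called. Both hairpins gave the call for 287 of 595 (48.2%), where 4.85% of all genes were called with both. The chromosome 1 segment had medians of -0.84 with MBNL1-64 and -0.76 with MBNL1-65, with 51 and 54 genes lower and 0 higher in each. Chromosome 5 had -0.48 and -0.22, and chromosome 6 had 0.37 and 0.43.

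For splicing events at the study's threshold, 52 of 202 events that could be tested were called in the same direction with MBNL1-64 (25.7%) and 1 in the opposite one, and 54 of 205 with MBNL1-65 (26.3%) and 1 opposite, where 2.45% and 1.4% of all events were called. Both hairpins gave 26 of 202 (12.9%, where 0.181% of all events were called with both), among them SEPT9 (-0.35 and -0.36), LILRA2 (0.27 and 0.31), the CS intron (-0.34 and -0.37), and C1orf85 (0.16 and 0.17), a group chosen after the values had been seen. CUX1 (-0.19 and -0.07), KIAA0895L (-0.04 and 0.19) and CDK5RAP2 (0.12 and 0.11) were called with neither hairpin, and the MGAT4B intron had -0.03 and -0.07. Among genes, CYBB had -0.62 with MBNL1-64, which passed, and -0.14 with MBNL1-65, which did not. IFI6 had 3.11 with MBNL1-64 and -0.23 with MBNL1-65, of which only the first passed. RPL7 had -3.40 and -0.41, of which again only the first passed. The granule genes CTSG (3.44 and 2.42) and PRSS57 (3.07 and 1.95), and DNAJC15 (2.75 and 2.30), passed with both. MPO, which had missed the threshold in set 1, passed with both at 3.25 and 3.49.

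**Figure D5:**
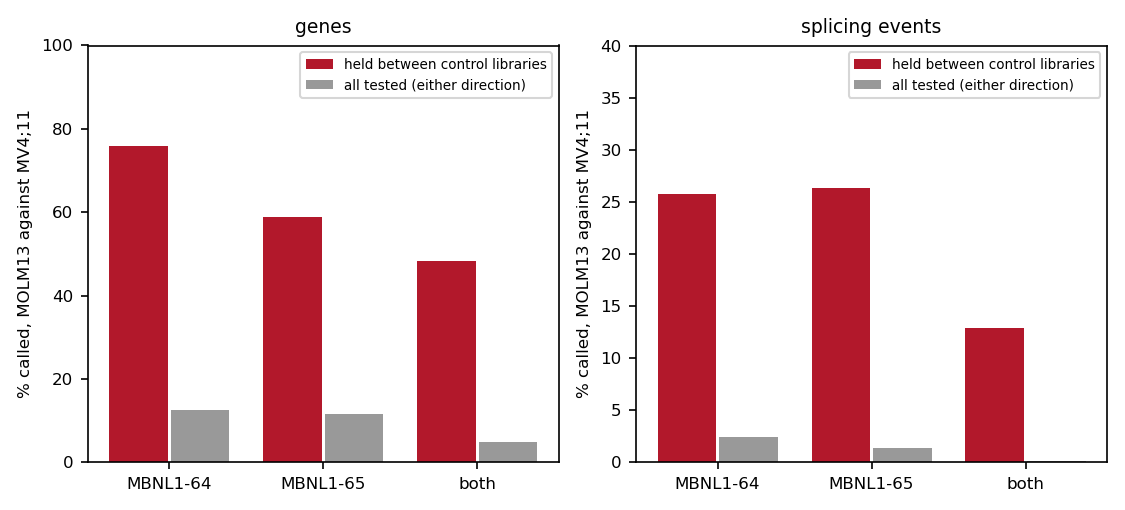
Percent of genes (left) and splicing events (right) called between MOLM13 and MV4;11 in the libraries with hairpin MBNL1-64, MBNL1-65 and with both. Red bars are the 620 genes and 209 events of the control libraries, called in the same direction, and grey bars all genes or events tested, called in either direction or, for both hairpins, in the same direction. Red bars of the genes reach 76%, 58.9% and 48.2% and those of the events 25.7%, 26.3% and 12.9%.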

How the data were processed

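RNA was read as paired ends. The authors aligned the reads with STAR to GRCh37 (hg19) and computed RPKM per gene with AltAnalyze, and RPKM values were used here as deposited. Low values lay on whole reads with 1 read added (100% within 0.1 reads), so a gene without reads has a fixed low value. The deposited splicing values are PSI, the fraction of reads at a junction cluster assigned to the event, made by the authors with MultiPath-PSI, and were turned to inclusion (1 minus the deposited value) for cassette exons and retained introns whose examined junction was the excluding one. Total reads are not in the files, so depth is given relative to the deepest library. The expression file held 22391 genes, of which 19445 took a symbol from GENCODE on GRCh37 and 721 from the splicing file, and 2225 had none.

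Each MOLM13 set was tested against MV4;11 in limma 3.58.1 (R 4.3.3, with the data.table package, version 1.17.8) on log2(RPKM + 1), where a group's mean RPKM reached 1, and on PSI for events measured in more than 50% of each group's libraries. P-values were adjusted by the Benjamini-Hochberg method over all genes or events. A gene was called at an adjusted p under 0.05 with a 1.5-fold difference, and an event with a PSI difference over 0.1. Errors beside differences are standard errors. Log2 differences understate the change of genes with low RPKM. Since 1 event was left in both comparisons, events are also described at the authors' threshold, an unadjusted p of 0.01 or less. The test was checked on simulated data.

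Members and the 30 gene lists (918 of 953 genes in the file) were chosen with earlier results of these data known. Named were the 15 genes with the largest smaller difference in each direction, the 3 largest called members of each list, a fixed set of regulators, and the largest events of each type. Genes of chromosome segments and events called with both hairpins were added after their values had been seen. Tables and figures were made with Python 3.11.15, pandas 2.3.3, numpy 2.4.6, matplotlib 3.10.9 and pysam 0.24.0. The labels give 6 MOLM13 and 3 MV4;11 shNT libraries on HiSeq where the methods give 3 and 4, and the labels were followed. Alternatives were another pseudocount, filter, scaling, fold, PSI scale, joint fit, replicate block, the day 12 MOLM13 libraries, and leaving out libraries. Some named results are not reported here.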

Additional observations from a re-analysis of the deposited data

How the results depend on the processing

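Depth below 1 RPKM and few junction reads per event limit what could be tested, and with 3 libraries a group the counts moved with single libraries. The cause of these changes was not tested. Leaving out each library in turn gave 138 to 2709 genes against set 1 (1098 with all), 446 to 1962 against set 2 (1238), 94 to 1230 against both (620) and 0 to 0 between the MOLM13 sets. For events it gave 42 to 231 against set 1 (105), 9 to 69 against set 2 (12), 1 to 21 against both (1), 3 to 95 between the sets (6) and 126 to 308 at the authors' threshold (209). Without the 3 libraries that stood apart, genes numbered 3652, 2661, 2332 and 17 in the same order, and events 20 against set 2, 27 between the sets and 316 at the authors' threshold.

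With no filter on low RPKM, 338, 157 and 69 genes passed against set 1, set 2 and both, and at a 2-fold difference 555, 563 and 297. A joint fit of the 3 groups gave 700 genes against set 2, and the 6 MOLM13 libraries pooled gave 1692. Day 12 libraries gave 2829 in place of set 1 (989 with set 2) and 2829 in place of set 2. Between the sets, 1 gene passed with a pseudocount of 0.1, 1 without one and 51 at an unadjusted p not above 0.01.

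At a PSI difference over 0.2, 60 events passed against set 1 and 87 at the authors' threshold against both. Events measured in every library numbered 4 against set 2 and 2 between the sets. The arcsine scale gave 228, 59, 9 and 56 events against set 1, set 2, both and between the sets. The joint fit gave 32 against set 1, 9 against both, 15 between the sets and 420 at the authors' threshold. At the authors' threshold 1319, 812, 209 and 522 passed. Day 12 libraries gave 717 in place of set 1 (7 with set 2) and 717 in place of set 2 (24 with set 1, and 422 at the authors' threshold). Pooling gave 30, and 1174 at the authors' threshold.

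Set 1 and MV4;11 share replicate numbers. The deviations of same-numbered libraries had r = 0.205, 0.027 and 0.149 in expression, and those of differently numbered ones -0.276 to 0.249. These values do not decide whether the numbers mark a pairing, and the numbers were not taken as one. With a replicate block, 722 genes passed against set 1 and 407 against both, and 0 events passed in limma against set 1 and 0 against both, where 5796 of 70720 had an unadjusted p under 0.05 and 115 passed the authors' threshold against both.

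Uncalled genes turned sign. Under median-ratio scaling CELF2 in set 1 was at -0.010, MLLT3 in set 2 at -0.0037 and MEIS1 in set 2 at -0.043, and with a pseudocount of 0.1 MLLT3 in set 2 was at -0.013. With each library left out in turn, log2 differences in set 1 ran between -0.22 and 0.21 for CELF2, -0.91 and 0.41 for KIT and -0.19 and 0.10 for MBNL1, and in set 2 between -0.046 and 0.17 for MLLT3 and -0.068 and 0.10 for MEIS1.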
